A study of Mus musculus with 6 samples.

Results

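The genes that build the immunoproteasome and load peptides onto MHC class I molecules were examined in the hippocampus of wild-type (WT) and transgenic (TG) mice. They are the 10 genes Psmb8, Psmb9, Psmb10, Psme1, Psme2, Tap1, Tap2, Tapbp, Tapbpl and Erap1, chosen by gene symbol from the 54532 genes of the deposited expression table. RNA of 3 WT and 3 TG mice was sequenced, with 1 library per mouse (WT1, WT2, WT3, TG1, TG2 and TG3). In the TG mice, G82R and L85P were introduced into Slc1a2, which encodes the glutamate transporter GLT-1. The alleles were made by CRISPR/Cas9 knock-in on a C57BL/6N background, the founders were mated with C57BL/6 mice, and the WT mice were littermates. The knock-in sits in the Slc1a2 gene itself and no separate promoter or Cre restricts it to a cell type. The zygosity, age and sex of the sequenced mice are not given in the sources used here.

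Proteasomes cut cytosolic proteins into peptides. In cells exposed to interferon, the catalytic subunits Psmb8, Psmb9 and Psmb10 can take the places of Psmb5, Psmb6 and Psmb7 in newly assembled particles, which are then called immunoproteasomes, and the ring-shaped activator PA28, made of Psme1 and Psme2, can dock at their ends. Peptides are pumped into the endoplasmic reticulum by the transporter of Tap1 and Tap2, trimmed there by the aminopeptidase Erap1, and loaded onto class I molecules with the help of tapasin (Tapbp) and of the tapasin-related peptide editor TAPBPR (Tapbpl). In the brain, class I presentation is low in neurons at rest and is best known in microglia, endothelium and infiltrating immune cells.

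The deposited values are FPKM, the reads of a gene scaled to its length and to a divisor of its library. The libraries held 16081281 to 18751057 reads on genes. The divisors recovered from the values ran from 15824455 (TG1) to 18722180 (WT3). In TG1 the divisor was below the 16116117 reads on genes, so it was not the plain depth of the library. Each member was counted from 26 to 759 reads per library. Groups were compared with limma on log2(FPKM + 0.1), a scale on which fold changes of low genes are understated, over the 20952 genes whose mean FPKM reached 0.1, with Benjamini-Hochberg adjustment of the p-values. Values of single libraries are listed in the order of their replicate numbers. Slc1a2 had an FPKM of 202, 199.5 and 177 in WT against 222, 207 and 217 in TG mice. A knock-in of amino acid changes need not alter this level, so it does not check the labels. The 10 markers of hippocampal neurons summed to an FPKM of 1421 to 1577 in the WT and 1478 to 1619 in the TG libraries, so the labelled tissue was present in all 6. TG1 and TG2 stood apart from the other 4 libraries in markers of the choroid plexus, the secretory epithelium that lies beside the hippocampus. The 15 choroid plexus genes summed to 59.1 to 88.1 in the WT libraries, 70.5 in TG3, 1227 in TG1 and 3865 in TG2, with none of the 15 at 0, and 9 of them were higher in the TG group by limma at an unadjusted p below 0.05. Fold changes with TG3 as the only TG library are therefore also given for the members that were higher. No such fold change is given for genes outside the members, whose calls rest on all TG libraries together.

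All 10 members passed the filter on low values. Psmb8, Psmb9, Tap2 and Tapbp, which are 2 catalytic immunosubunits, a transporter subunit and tapasin, were higher in TG than in WT mice by limma at an unadjusted p below 0.05, and no member was lower at this threshold. Of all genes tested, 3.13% were higher and 2.78% were lower by the same rule. None of the 10 passed at an adjusted p below 0.05 in limma, where 0.00477% of all genes did in each direction, and the members' adjusted p lay between 0.786 and 0.979. A second fit, limma-voom on the reads recovered from the FPKM, called the same 4 members higher at the unadjusted threshold, beside 3.88% of all genes, and no member at the adjusted one, beside 0% of all genes. The median log2 fold change of the members was 0.32, beside a median of -0.002 over all genes tested, and 7 of the 10 values were positive. These 4 genes had every TG library above every WT library, against 6.35% of all genes tested, and no member lay wholly below, against 5.71%. With TG3 as the only TG library, the lone sample being assumed to vary like the WT libraries, 2 members (Psmb8 and Psmb9) were higher at the unadjusted threshold, beside 1.99% of all genes.

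**Figure D1:**
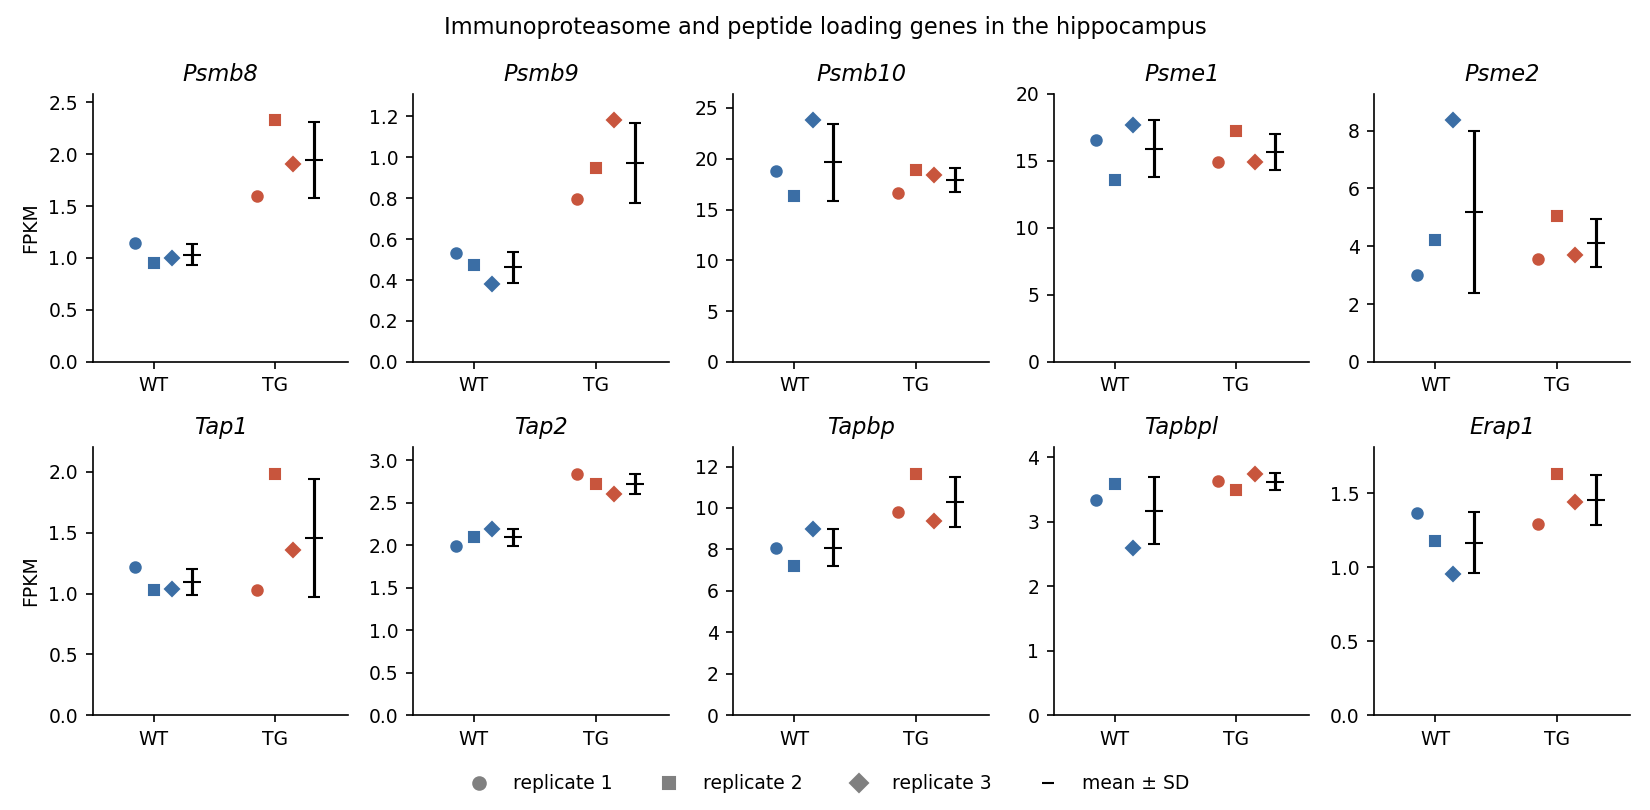
FPKM of the 10 members in each library, with a marker shape per replicate number, WT in blue and TG in red, and the mean ± SD in black (n = 3 per group). The TG points lie above all WT points for Psmb8, Psmb9, Tap2 and Tapbp, and overlap them for the other 6 genes.

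The members differed widely in level. The mean FPKM over the 6 libraries was 18.8 for Psmb10, 15.8 for Psme1, 9.19 for Tapbp, 4.65 for Psme2, 3.39 for Tapbpl, 2.41 for Tap2, 1.49 for Psmb8, 1.31 for Erap1, 1.27 for Tap1 and 0.718 for Psmb9. The ranges over libraries of neighbours in this order overlapped, except for Psme1 and Tapbp. Within single libraries most of the order held all the same: Psme2 exceeded Tapbpl in 3 of 6 libraries, Psmb8 exceeded Erap1 in 4 and Erap1 exceeded Tap1 in 4, and each other neighbouring pair kept its order in 6 of 6. The hippocampus thus held far more Psmb10 than Psmb8 or Psmb9 message per unit of length in both groups.

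Of the catalytic immunosubunits, Psmb8 and Psmb9 were higher in TG mice, each with close to 2 times the mean FPKM, and Psmb10 was not. Psmb8 (ENSMUSG00000024338, chr17:34197721-34201454, plus strand, GRCm38) encodes the subunit with chymotrypsin-like activity, also called LMP7. Its FPKM was 1.15, 0.950 and 0.996 in WT against 1.59, 2.32 and 1.90 in TG mice. All 3 TG libraries lay above all 3 WT libraries, TG2 highest. The means were 1.03 ± 0.103 in WT and 1.94 ± 0.367 in TG mice (± SD, n = 3 per group), and the log2 fold change was 0.84 (SE 0.175, 95% interval 0.43 to 1.25, limma unadjusted p = 0.00179, adjusted p = 0.786). With TG3 alone it was 0.83 (limma unadjusted p = 0.0185), and with a pseudocount of 1 in place of 0.1 it was 0.53.

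Psmb9 (ENSMUSG00000096727, chr17:34181988-34187764, minus strand) encodes LMP2, which replaces the caspase-like subunit Psmb6. Its FPKM was 0.532, 0.474 and 0.380 in WT against 0.794, 0.945 and 1.18 in TG mice. The groups did not overlap, and the highest value was that of TG3. The means were 0.462 ± 0.0770 and 0.973 ± 0.194 (± SD, n = 3 per group), with a log2 fold change of 0.93 (SE 0.226, 95% interval 0.40 to 1.46, limma unadjusted p = 0.00420, adjusted p = 0.786). These values rest on 26 to 78 reads, the fewest of any member. With TG3 alone the log2 fold change was 1.20 (limma unadjusted p = 0.0163), and with a pseudocount of 1 it was 0.43.

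Psmb10 (ENSMUSG00000031897, chr8:105935735-105938444, minus strand) encodes MECL-1, the counterpart of the trypsin-like subunit Psmb7. Its FPKM was 18.8, 16.4 and 23.8 in WT against 16.6, 18.9 and 18.3 in TG mice, with WT3 highest and the groups overlapping. The log2 fold change was -0.11 (SE 0.136, 95% interval -0.43 to 0.20, adjusted p = 0.839), and it turned to 0.03 without WT3. The intervals of Psmb8 and Psmb9 both lay above that of Psmb10, although the difference between genes was not tested here.

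Each immunosubunit was set against the constitutive subunit whose place it takes, as a ratio within each library. This cancels the divisor of that library but not the gene lengths used for FPKM. Of the 3 constitutive genes, Psmb5 and Psmb7 passed as lower in TG mice by unadjusted p, and Psmb6 did not. Psmb5 had a log2 fold change of -0.25 (SE 0.0982, limma unadjusted p = 0.0359), Psmb6 of -0.16 (SE 0.129, limma unadjusted p = 0.258) and Psmb7 of -0.34 (SE 0.133, limma unadjusted p = 0.0369), and none passed at an adjusted p below 0.05. The Psmb8 to Psmb5 ratio was 1.12%, 1.00% and 0.857% in WT against 1.84%, 2.46% and 2.33% in TG mice. The Psmb9 to Psmb6 ratio was 1.28%, 1.28% and 0.795% in WT against 2.47%, 2.40% and 2.83% in TG mice. Both mean ratios were low, and over 2 times as high in TG as in WT mice, and no WT library reached a TG library. The Psmb10 to Psmb7 ratio was 88.4%, 87.9% and 90.6% in WT against 107%, 102% and 103% in TG mice. It lay under 100 in each WT library and over 100 in each TG library. As the ratio depends on the gene lengths used (1705 bases for Psmb10, 3421 for Psmb7), 100 does not mark equal numbers of transcripts. Psmb10 itself was not higher (log2 fold change -0.11), so the higher ratio went with the lower Psmb7. Its spread between mice of the same group (SD of 1.42 and 2.41 percentage points) was smaller in relation to the mean ratio than that of either gene alone.

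The differences between the group means of the log2 ratios were 1.09, 1.09 and 0.22. An exact two-sided permutation test gave p = 0.1 for each of the 3 ratios, which is the smallest value that 3 against 3 libraries allow, so no ratio could pass 0.05. Leaving out each library in turn gave 0.99 to 1.21 for the first ratio, 0.88 to 1.19 for the second and 0.20 to 0.24 for the third. Of the 50-base stretches in Psmb5 transcripts, 54.1% also occur in transcripts of other genes, mainly the pseudogene Gm3375, so the level of Psmb5, and with it the first ratio, depends on how shared reads were assigned. The share was 11.9% for Psmb8, 9.26% for Psmb7, 4.19% for Psmb9 and 1.05% for Psmb6, and none were shared for Psmb10.

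**Figure D2:**
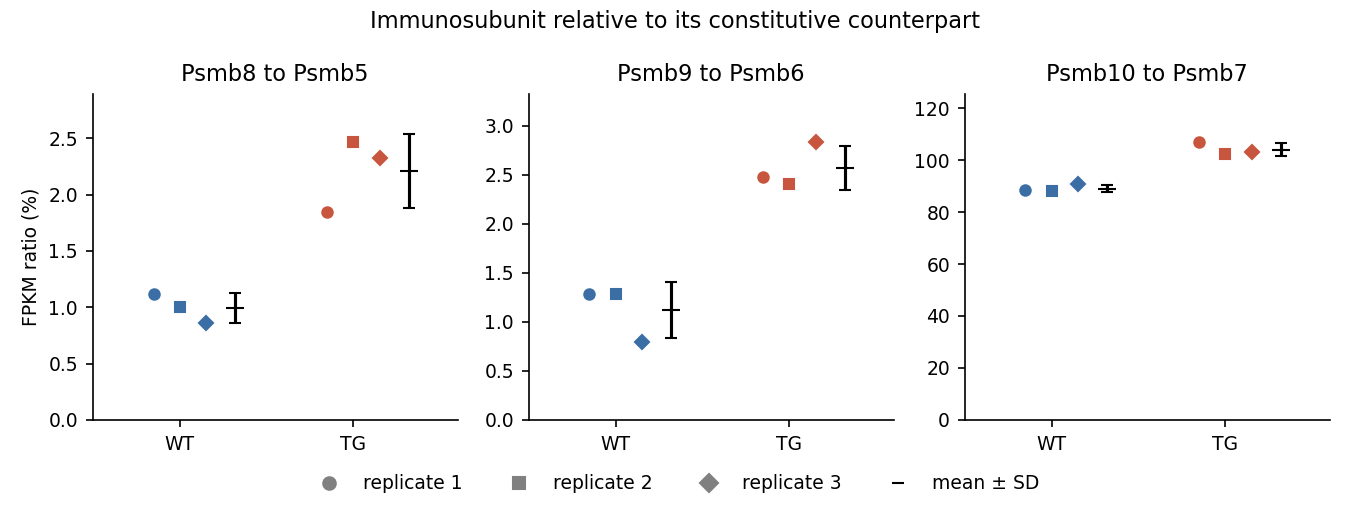
FPKM of each immunosubunit as a percent of the FPKM of its constitutive counterpart in each library, with a marker shape per replicate number and the mean ± SD in black (n = 3 per group, each vertical axis from 0). The TG libraries lie above the WT libraries in all 3 panels, from about 1% to over 2% in the first pair of panels and from 89.0% to 104% on average in the last.

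The PA28 activator genes showed no difference between the groups beyond their spread. Psme1 (ENSMUSG00000022216, chr14:55578123-55581529, plus strand) encodes the alpha subunit, and its FPKM was 16.5, 13.6 and 17.6 in WT against 14.9, 17.2 and 14.9 in TG mice. The groups overlapped fully, and the log2 fold change was -0.02 (SE 0.114, 95% interval -0.28 to 0.25, adjusted p = 0.979). Its sign was not stable, ranging from -0.13 to 0.06 when single libraries were left out.

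Psme2 (ENSMUSG00000079197, chr14:55587441-55591113, minus strand) encodes the beta subunit. Its FPKM was 3.00, 4.21 and 8.36 in WT against 3.55, 5.06 and 3.70 in TG mice, and the value of WT3 stood far above the other 5. The log2 fold change was -0.22 (SE 0.345, 95% interval -1.03 to 0.59, adjusted p = 0.879), and without WT3 it was 0.18. Psme2 has a near-identical copy, Psme2b, on chromosome 11. Their coding sequences are 717 bases each without a gap, differ at 5 positions (99.3% identity), and are identical over a run of 311 bases. The 120 bases that hold 3 of the 5 differences are shown because a read over them can tell the copies apart, with the differing bases in capitals. They are coding bases 424 to 543, 5′ to 3′, spliced from the GENCODE transcripts of GRCm38. The Psme2 stretch runs over chr14:55588049-55588449 on the minus strand with introns removed, and the Psme2b stretch over chr11:48945576-48945695 on the minus strand.
Psme2: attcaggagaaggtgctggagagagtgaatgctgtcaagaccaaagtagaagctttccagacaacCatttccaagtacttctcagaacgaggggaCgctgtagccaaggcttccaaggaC
Psme2b: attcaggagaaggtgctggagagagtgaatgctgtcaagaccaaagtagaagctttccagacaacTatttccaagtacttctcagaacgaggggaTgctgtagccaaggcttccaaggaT

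The reads counted to the copies went opposite ways among the WT libraries, while among the TG libraries TG1 had the fewest of both. Psme2 had 98, 120 and 276 reads in WT against 99, 160 and 118 in TG mice, whereas Psme2b had 158, 114 and 96 reads in WT against 110, 163 and 180 in TG mice. WT3, the library with the most Psme2 reads, had the fewest Psme2b reads, and Psme2 took 74.2% of the summed reads there but 38.3% to 51.3% in the other 5 libraries. The sums were 256, 234 and 372 reads in WT against 209, 323 and 298 in TG mice. Scaled to library depth as CPM, the sum was 16.1 ± 3.31 in WT and 15.9 ± 2.46 in TG mice (± SD, n = 3 per group), a log2 difference of -0.01 (exact permutation p = 1). This sum was computed after the values of Psme2 had been seen. How shared reads were assigned to the copies was not tested, and the level of Psme2 alone is uncertain.

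**Figure D3:**
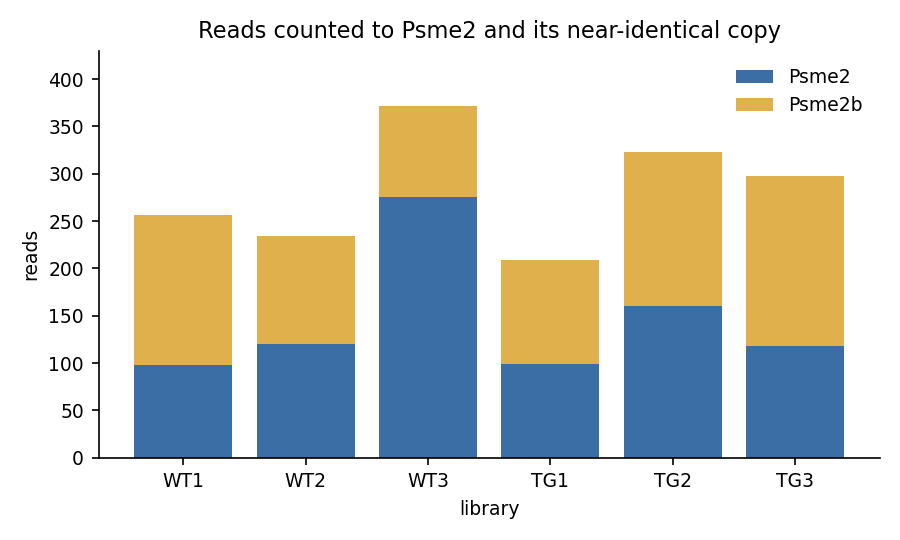
Reads counted to Psme2 (blue) and to its copy Psme2b (yellow) in each library, stacked from 0. The share of Psme2 is largest in WT3 (74.2%), while the stacked totals run from 209 to 372 reads with WT and TG libraries interleaved.

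Of the transporter genes, Tap2 was higher in each TG library than in any WT library, and Tap1 was not. Tap2 (ENSMUSG00000024339, chr17:34203527-34216321, plus strand) had an FPKM of 1.99, 2.10 and 2.19 in WT against 2.84, 2.71 and 2.61 in TG mice. The spread within each group was small, with means of 2.09 ± 0.101 and 2.72 ± 0.117 (± SD, n = 3 per group). The log2 fold change was 0.36 (SE 0.105, 95% interval 0.12 to 0.61, limma unadjusted p = 0.00997, adjusted p = 0.786). With TG3 alone it was 0.31 (limma unadjusted p = 0.110).

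Tap1 (ENSMUSG00000037321, chr17:34187553-34197225, plus strand) had an FPKM of 1.21, 1.03 and 1.03 in WT against 1.03, 1.99 and 1.35 in TG mice. TG2 and TG3 lay above all WT libraries, whereas TG1 was the lowest of the 6. The log2 fold change was 0.34 (SE 0.238, 95% interval -0.22 to 0.90, limma unadjusted p = 0.194, adjusted p = 0.789). It was 0.55 (limma unadjusted p = 0.0423) without TG1 and 0.11 without TG2, so single libraries decided its size. Tap1 and Psmb9 lie head to head, with RefSeq starts at 34187556 and 34187330, which are 226 bases apart on opposite strands, and their gene bodies overlap. Whether the counting used strand was not stated, so reads in the overlap could belong to either gene, and 4.19% of the stretches of Psmb9 and 3.33% of those of Tap1 are shared. Although they share this start region, the neighbours differed in TG1, where Psmb9 was at 0.794 against a WT maximum of 0.532 and Tap1 was at its lowest.

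Of the genes that act on peptides inside the endoplasmic reticulum, Tapbp was higher and Tapbpl and Erap1 overlapped between the groups. Tapbp (ENSMUSG00000024308, chr17:33915899-33929288, plus strand), which bridges class I molecules to the transporter, had an FPKM of 8.06, 7.19 and 9.01 in WT against 9.82, 11.7 and 9.39 in TG mice. The lowest TG value, that of TG3, was just above the highest WT value. The means were 8.09 ± 0.908 and 10.3 ± 1.21 (± SD, n = 3 per group), with a log2 fold change of 0.34 (SE 0.117, 95% interval 0.07 to 0.62, limma unadjusted p = 0.0209, adjusted p = 0.786). The limma unadjusted p was 0.0506 without WT1, 0.0699 without WT2, 0.0734 without TG2 and 0.250 with TG3 alone, where the log2 fold change was 0.22. Of the stretches in Tapbp transcripts, 23.2% occur in transcripts of other genes. In the deposited coordinates Zbtb22 starts 0.005 kb after Tapbp on the same strand, so the gene bodies overlap. Its mean FPKM was 14.5 in WT and 13.5 in TG mice. How reads in this overlap were assigned was not tested.

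Tapbpl (ENSMUSG00000038213, chr6:125223933-125231860, minus strand) had an FPKM of 3.33, 3.58 and 2.59 in WT against 3.63, 3.49 and 3.74 in TG mice. WT3 was lowest and the other 5 libraries lay close together. The log2 fold change was 0.20 (SE 0.135, 95% interval -0.12 to 0.51, adjusted p = 0.789), and 0.06 without WT3. Erap1 (ENSMUSG00000021583, chr13:74639568-74693201, plus strand) had an FPKM of 1.37, 1.17 and 0.954 in WT against 1.29, 1.63 and 1.44 in TG mice, with TG1 within the WT range. Its log2 fold change was 0.30 (SE 0.178, 95% interval -0.11 to 0.72, adjusted p = 0.789). It was 0.18 without WT3.

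**Figure D4:**
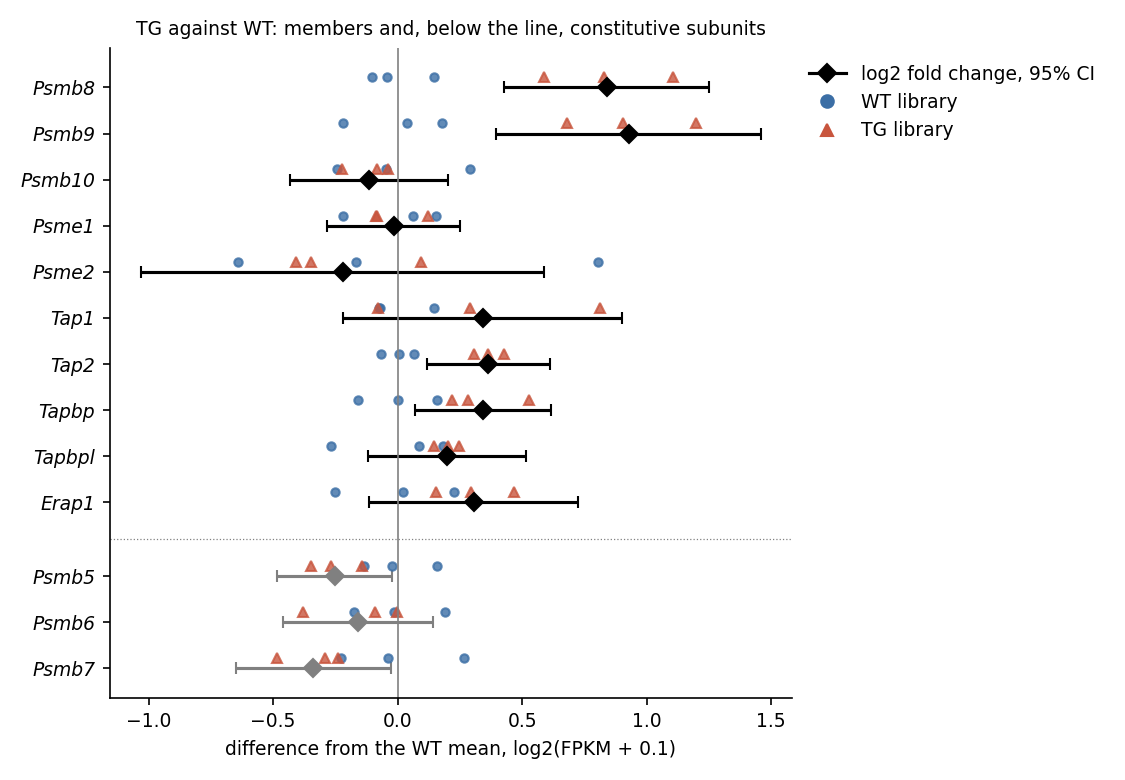
Log2 fold change of TG against WT mice with its 95% interval (diamonds) for the 10 members and, below the dotted line, the 3 constitutive catalytic subunits, with each WT (circles) and TG library (triangles) as its difference from the WT mean on log2(FPKM + 0.1). The intervals of Psmb8, Psmb9, Tap2 and Tapbp lie above 0, and those of Psmb5 and Psmb7 lie under 0.

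The members were also compared library by library. Of the 10 members, 5 lay above every WT library in TG1, 6 in TG2 and 7 in TG3, while 27.7%, 23.6% and 23.3% of all genes tested did so in these libraries. TG3, whose summed choroid plexus markers were within the WT range, thus had the most members above the WT libraries, although 3 of the 15 markers were above every WT library in TG3 too. TG2 was the highest library for Psmb8, Tap1, Tapbp and Erap1, TG3 for Psmb9 and Tapbpl, and TG1 for Tap2. In whole tissue, more cells of a type and more RNA per cell cannot be told apart.

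Markers of other cells that use this pathway were read beside these values. The 12 microglial genes, none of them at 0, summed to 202 to 228 in the WT libraries and to 185, 256 and 248 in TG1 to TG3, and 1 of them (Csf1r) was higher at an unadjusted p below 0.05. The 6 genes of border macrophages, none at 0, summed to 1.93 to 3.14 in WT and to 3.62, 3.28 and 3.34 in TG mice, with none higher at that threshold. The 11 genes of T and NK cells summed to 0.952 to 1.88 in WT and to 1.10, 3.20 and 2.35 in TG mice, 5 of them were at 0 in at least 1 library, and Ncr1, a defining receptor of NK cells, was at 0 in all 6. The 9 endothelial genes, none at 0, summed to 99.6 to 118 in WT and 109 to 113 in TG mice, with Flt1 higher. The 8 meningeal genes, none at 0, summed to 26.9 to 51.6 in WT and to 60.3, 81.4 and 42.0 in TG mice, with Igfbp2 higher. Much of these sums was Igfbp2, at 18.8, 11.8 and 12.3 in WT against 36.1, 63.5 and 18.5 in TG mice. The median log2 deviation of the 8 genes from their WT means was 0.48, -0.10 and 0.56 in TG1 to TG3. These values lay within the range of the WT libraries, -0.37 to 0.67. The microglial and the T and NK cell sums were lowest or near lowest in TG1 and highest in TG2, as Tap1 was. The border macrophage sum was above the WT range in all 3 TG libraries, as Psmb8, Psmb9, Tap2 and Tapbp were. It was only just so in TG2, at 3.28 against 3.14 in WT1. By the median log2 deviation of the border macrophage genes from their WT means, TG2 (0.27) was below WT1 (0.33). TG1 (0.44) and TG3 (0.50) were above WT1. Of these 6 genes, 1 (Ms4a7) had every TG library above every WT library, and the others overlapped. The part of these cells in the members' levels was not tested.

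The members were chosen by gene symbol and not by position, although earlier results of these data were known. Psmb8, Psmb9, Tap1, Tap2 and Tapbp lie in the MHC region of chromosome 17, and 4 of these 5 were higher at an unadjusted p below 0.05, against none of the 5 members on other chromosomes, beside 3.13% of all genes tested. With TG3 alone, 2 of the 5 (Psmb8 and Psmb9) were. The difference by position was not tested. The stretch from the start of Tapbp to the end of Tap2 is 300.4 kb long and held 37 genes of the table, of which 26 were tested. This stretch was chosen after the values were seen. Besides the 5 members, 17 of the tested genes were protein-coding. Of these, 12 are neither members nor H2 genes, and none of the 12 was higher or lower at an unadjusted p below 0.05. Their log2 fold changes ran from -0.30 (Rps18, a ribosomal protein) to 0.06 (B3galt4, a glycosyltransferase), with a median of -0.04. The other 5 are H2 genes, which encode MHC molecules and their relatives. Of these, H2-K1, a classical class I heavy chain, had an FPKM of 19.1, 12.4 and 15.1 in WT against 19.6, 47.9 and 32.8 in TG mice. TG2 and TG3 were far above the WT libraries and TG1 was close to WT1. Its log2 fold change was 1.03 (SE 0.312, limma unadjusted p = 0.0123, adjusted p = 0.786). The remaining 4 H2 genes did not pass the unadjusted threshold.

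**Figure D5:**
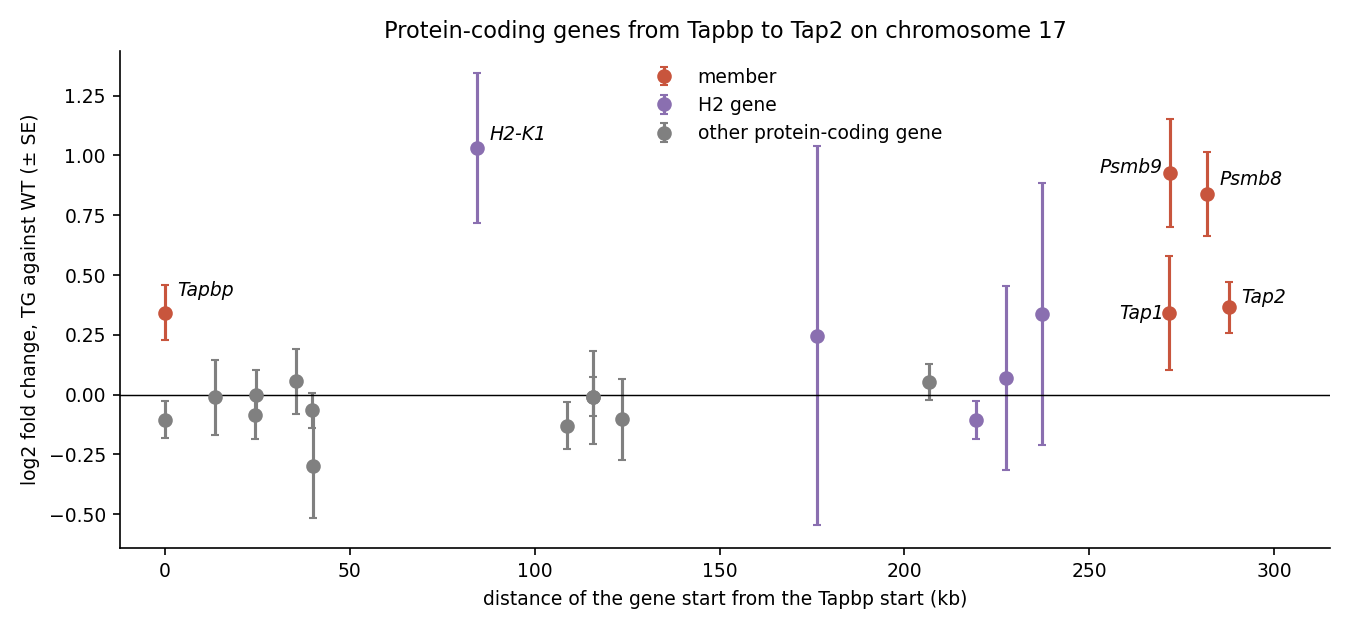
Log2 fold change ± SE of the tested protein-coding genes from Tapbp to Tap2, against the distance in kb of each gene's start from that of Tapbp. The start is the lowest coordinate of a gene on the plus strand and the highest of a gene on the minus strand. The 5 members (red) and H2-K1 (purple) lie between 0.34 and 1.03, and the 12 genes without an H2 or member name (grey) lie between -0.30 and 0.06.

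The start regions of the members were searched for 2 motifs of interferon signalling, in windows from 250 bases before to 50 bases after each RefSeq start in GRCm38.p6. The tables held 9 windows for 8 of the 10 members, with none for Tap2 and Tapbpl. The interferon-stimulated response element was searched as a pair of GAAA runs with 2 bases of any kind between them, and the gamma-activated site as TTCNNNGAA, on both strands. The first was found in 2 of the 9 windows, those of Erap1 and Psme1, and in 3.44% of all 32851 windows. The second was found in 1 of the 9, that of Psmb8, and in 8.3% of all windows. The matches are shown with the bases around them, written along the plus strand with the match in capitals, because they are the only matches among the members. For Erap1 (chr13:74639839-74639868) and Psme1 (chr14:55578493-55578522) the capitals are the reverse complement of the searched motif. They begin 4 bases before the start in Erap1 and at base 10 in Psme1, counted from and including the start base. For Psmb8 (chr17:34198088-34198117) they begin 97 bases before the start.
Erap1: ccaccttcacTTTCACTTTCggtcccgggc
Psme1: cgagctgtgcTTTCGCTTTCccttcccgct
Psmb8: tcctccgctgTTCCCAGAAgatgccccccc

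A match is only a description of letters in a window. The windows of Psmb9, Tap1 and Tapbp held neither run of letters, which says nothing of these genes beyond the windows and the exact letters searched.

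The rest of the pathway was read from lists. In 5 of them, 46 genes were tested, of which 1 was higher and 4 were lower at an unadjusted p below 0.05, beside 3.13% and 2.78% of all genes tested, none passed at an adjusted p below 0.05 in limma, and the median log2 fold change was -0.05. The 16 other core subunits, activators and assembly factors of the proteasome had a median of -0.21 with no positive value. Their summed FPKM was 464, 444 and 562 in WT against 390, 439 and 433 in TG mice, so WT3 was highest and WT2 was close to TG2 and TG3. Psma6 and Psma4, which belong to the outer rings, were lower at the unadjusted threshold. Psma6 was at 68.1, 65.7 and 79.8 in WT against 50.7, 62.7 and 55.5 in TG mice (log2 fold change -0.34, SE 0.108, limma unadjusted p = 0.0158). Psmb4, the most abundant of them, had a log2 fold change of -0.20 (SE 0.115). The 4 lower calls of these lists became 0 without TG1, 1 without WT1, 1 without WT3, 2 without TG3 and 8 without WT2.

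Of the 8 chaperones of the endoplasmic reticulum and class I light chain, 6 had positive values, none passed and the median was 0.05. B2m, the light chain, had the smallest p and the highest level of this list. Its FPKM was 87.0, 65.3 and 79.4 in WT against 67.9, 181 and 132 in TG mice, so TG2 and TG3 were high and TG1 was within the WT range (log2 fold change 0.62, SE 0.328, limma unadjusted p = 0.101). Of the 8 cytosolic peptidases listed, 7 were in the table under the symbol used, none passed, and the median was -0.05. The insulin-degrading enzyme Ide had the smallest p (log2 fold change 0.13, SE 0.0769) and the aminopeptidase Npepps, the most abundant, was at 0.01.

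The 12 regulators of class I genes had 10 positive values and a median of 0.12. Nlrc5, a transactivator of class I and associated genes, was the 1 higher gene. Its FPKM was 0.134, 0.117 and 0.0629 in WT against 0.417, 0.499 and 0.411 in TG mice, without overlap (log2 fold change 1.42, SE 0.315, limma unadjusted p = 0.00252, adjusted p = 0.786). Its level was low in all libraries. Rfxap, the most abundant regulator, had a log2 fold change of -0.01, and the interferon-induced factor Irf1 had 0.10.

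Protein-coding genes were sought whose levels across the 6 libraries most resembled the median profile of the members, which single members need not follow. The search covered 11908 genes whose mean FPKM reached 1. Likeness was the root mean square difference between a gene's log2(FPKM + 0.1), centred on its mean, and the median profile of the members, which was -0.10, -0.20 and -0.18 in WT against 0.05, 0.26 and 0.12 in TG mice. The nearest were Msi1 (0.0366), Soat1 (0.0444), Dusp16 (0.0459), Tpp1 (0.0506) and Fndc3a (0.0515). None of the 5 lies on chromosome 17, and all are described over the same 6 libraries as the members.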

How the data were processed

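Hippocampal RNA-seq of 3 WT and 3 TG mice was analysed. The authors counted reads per gene with HTSeq and deposited FPKM, scaled to gene length and a divisor per library, with 1 column per library. The aligner is not given in the sources used here, and the labels name GRCm38 and mm10. Methods and labels name different extraction and library kits. Gene coordinates are those of the deposited table, and the Psme2 and Psme2b stretches have GENCODE positions. Of the table's gene identifiers, 54409 were found in a GENCODE annotation of GRCm38. The 10 members were all found, 8 at the same position as in the table (not Tapbp and Psmb9).

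Groups were compared with limma 3.58.1 in R 4.3.3 (lmFit, eBayes with trend) on log2(FPKM + 0.1), over the 20952 genes whose mean FPKM reached 0.1, without covariates, with Benjamini-Hochberg adjustment over all of them at 0.05. Ratios were tested with exact two-sided permutation tests. FPKM times length gave whole reads for 100% of values (tolerance 0.05 reads), and 3 reads on 1 kb gave an FPKM of 0.160 to 0.190. Reads are not independent molecules, so this covers counting only. Only the numbered labels say that libraries are separate animals, and p-values measure the spread between these libraries. Shared stretches are 50-base runs of transcript that a gene has in common with others. Start windows are from RefSeq. Fits were tested on simulated data.

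The members and lists were chosen with earlier results of these data known. The text names all members, Psmb5 to Psmb7, in each pathway list the most abundant gene and that with the smallest p, the 5 nearest profiles and Slc1a2. H2-K1, Rps18, B3galt4, Zbtb22, Psma4, Psme2b, Irf1 and single cell type markers were named after their values were seen. Some results are not reported here. Of the lists read beside the results but not given there, 8 astrocyte genes and 5 blood genes had none higher or lower at an unadjusted p below 0.05, and of 5 tested ependymal genes 3 were lower. Alternatives changed the pseudocount, filter, scaling, variance model, gene types, libraries and replicate block.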

Additional observations from a re-analysis of the deposited data

How the results depend on the processing

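No member passed at an adjusted p under 0.05 in limma or in any of 19 alternatives, where the smallest adjusted p was 0.372. The 4 members that were higher became 3 to 5 when single libraries were left out, and the 4 with non-overlapping groups became 4 to 6. In TG3 alone, which asks for only 1 library above the WT libraries, 7 members lay above every WT library. Of all genes tested, 23.3% did so in TG3, against 6.35% in all 3 TG libraries. The median log2 fold change (0.32) was 0.20 with a pseudocount of 1 and 0.22 to 0.35 when single libraries were left out. Of the other pathway genes, the 1 higher became 0 with a mean FPKM of at least 1, 2 with voom, 2 with TG3 alone and 1 to 2 without single libraries, and the 4 lower became 1 without the trend, 0 with TG3 alone and 0 (without TG1) to 8 (without WT2), with 1 without WT1, 1 without WT3 and 2 without TG3. Signs turned for Psme1 (0.0196 as TPM, and -0.13 to 0.0627 without single libraries), Psmb10 (-0.24 to 0.0307) and Psme2 (-0.54 to 0.18). With a pseudocount of 1 the log2 ratio differences were 0.78, 0.58 and 0.21. The causes were not tested, except that fewer genes or samples enter some alternatives. Median-of-ratios factors were 1.0024 in all libraries. The deposited values were thus already level between libraries by this measure, and that alternative was void. Deviations of equally numbered libraries from their group means correlated at 0.0125, 0.0434 and 0.00314. No pairing by replicate number was thus seen, but litters or batches shared under other numbers cannot be seen this way. With the replicate block, 4 members passed as higher by unadjusted p and 0 by adjusted p, the median stayed 0.32, the other pathway genes stayed at 1 higher and 4 lower, and the mean log2 ratio differences, which pairing cannot move, were 1.09, 1.09 and 0.22. Depth limits Psmb9 most, at 26 to 78 reads.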
